A study of Mus musculus with 12 samples.

Results

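The genes described here encode the chaperones of the endoplasmic reticulum (ER), the machinery that removes misfolded proteins from it, and the sensors and transcription factors of the unfolded protein response. They were taken by symbol from a list of 35 genes, of which 34 are in the deposited table of 13267 genes, and all 34 passed the filter on low values. Xbp1 was not analysed here. The members were divided into 24 chaperone, disulphide isomerase, degradation and translocon genes (called ATF6/XBP1-type below), 7 genes of the PERK-ATF4 arm and 3 sensors.

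The samples were 12 livers of C57BL/6 mice, every one made obese and steatotic on a high-fat diet before treatment. For 6 weeks 6 mice carried a scaffold control under the skin, and the other 6 received 4-hydroxyphenylacetic acid (4-HPAA), a phenolic acid that gut bacteria form, by the same route, as pellets. Age and sex are not given in the labels, and livers were frozen at necropsy after a flush with saline. Replicates are numbered 1 to 6 in each group, with nothing on litters, cages or batches, and a p-value here reflects only how these libraries vary. Values are read counts that the authors scaled per library and rounded (normalised read counts).

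Hepatocytes secrete most plasma proteins, and these proteins fold in the ER with the help of lumenal chaperones. When unfolded protein builds up, 3 membrane sensors respond. ATF6 is cut to release a transcription factor, IRE1 (encoded by Ern1) splices the messenger RNA of XBP1, and both factors raise chaperone and degradation genes. PERK (encoded by Eif2ak3) phosphorylates the initiation factor eIF2-alpha, which slows translation but favours that of ATF4, a factor for amino acid synthesis and stress genes that other kinases can also call up.

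The elements through which these factors are known to act could be searched in the members' promoters, and are shown so that the branches can be compared by sequence. RefSeq promoters of GRCm38.p6, 250 bases before to 50 after each start site, were found for 28 of 34 members, without Manf, Hyou1, Derl1, Sec61a1, Atf6 and Ppp1r15b. The ER stress response element, an ATF6 site searched on both strands as CCAAT, any 9 bases and CCACG, was in the promoters of 9 of 20 ATF6/XBP1-type genes, 0 of 6 PERK-ATF4 genes and 0 of 2 sensors. Of all 32851 promoters of this length, 39 held it (0.119%), which is 37 of 27025 genes (0.137%). The members were grouped by known role, so these shares do not test the grouping. The matches are given along the strand that carries the element, with its fixed letters in capitals.
Hspa5 (chr2:34772025-34772043, plus strand): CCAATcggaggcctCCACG
Hsp90b1 (chr10:86705638-86705656, minus strand): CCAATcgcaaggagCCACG
Hsp90b1 (chr10:86705533-86705551, plus strand): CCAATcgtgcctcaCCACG
Calr (chr8:84847075-84847093, plus strand): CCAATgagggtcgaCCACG
Canx (chr11:50325800-50325818, minus strand): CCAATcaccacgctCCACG
Creld2 (chr15:88819520-88819538, minus strand): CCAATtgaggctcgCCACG
Dnajc3 (chr14:118937827-118937845, plus strand): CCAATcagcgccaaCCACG
Pdia6 (chr12:17266491-17266509, plus strand): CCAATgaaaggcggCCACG
Syvn1 (chr19:6046532-6046550, plus strand): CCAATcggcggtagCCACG
Derl3 (chr10:75893242-75893260, minus strand): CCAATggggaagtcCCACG

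A further form of the element, ATTGG, any 1 base and CCACG, was found in 12 promoters of all (0.0365%), among them those of Herpud1 and Dnajb11. The core of the ATF4 and C/EBP composite element is TGATGNAA. It occurred in 3 of 6 PERK-ATF4 genes (Asns, Atf3 and Trib3) and 1 of 20 ATF6/XBP1-type genes (Herpud1). It was in 3.97% of all promoters and 4.51% of all genes. An XBP1 site in the form TGACGTGG was in none of the members' promoters and in 0.676% of all. Forms with another last base were not searched, and the Hspa5 window printed below holds such a form (tgacgtga) near its first bases. The patterns named here were all searched on both strands. The matches of Dnajb11 and Trib3 lay just after the start site, at bases 7 to 17 and 14 to 21. A match is only a match of letters and was not tested for binding. The factor names label the patterns and do not show which factor binds.
Herpud1, ATF6 form (chr8:94386377-94386387, plus strand): ATTGGgCCACG
Dnajb11, ATF6 form (chr16:22857852-22857862, plus strand): ATTGGcCCACG
Asns, ATF4-type core (chr6:7693225-7693232, minus strand): TGATGaAA
Atf3, ATF4-type core (chr1:191183436-191183443, plus strand): TGATGcAA
Trib3, ATF4-type core (chr2:152344039-152344046, plus strand): TGATGtAA
Herpud1, ATF4-type core (chr8:94386317-94386324, minus strand): TGATGcAA

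The 160 bases before the start site of 3 genes show the elements in place, with the fixed letters of each match in capitals on the strand of the gene. In Hspa5 the element lay 65 to 47 bases before the start. Herpud1 carried both kinds, the ATF4-type core at 112 to 105 bases, read on the other strand, and the second ATF6 form at 52 to 42 bases. In Asns the ATF4-type core lay at 23 to 16 bases.
Hspa5 (chr2:34771930-34772089, plus strand): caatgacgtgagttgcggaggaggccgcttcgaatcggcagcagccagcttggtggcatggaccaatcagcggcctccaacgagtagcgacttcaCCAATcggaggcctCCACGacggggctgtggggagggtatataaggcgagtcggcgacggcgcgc
Herpud1 (chr8:94386269-94386428, plus strand): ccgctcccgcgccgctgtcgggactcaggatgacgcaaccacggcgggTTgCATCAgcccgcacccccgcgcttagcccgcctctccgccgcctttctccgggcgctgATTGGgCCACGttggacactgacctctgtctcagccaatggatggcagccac
Asns (chr6:7693210-7693369, minus strand): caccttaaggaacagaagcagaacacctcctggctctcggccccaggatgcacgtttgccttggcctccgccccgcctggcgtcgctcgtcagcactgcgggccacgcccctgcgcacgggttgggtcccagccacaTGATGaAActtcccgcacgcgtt

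Chaperone genes were higher on average in 4-HPAA livers, degradation genes less so, and the PERK-ATF4 genes were mixed, but no single gene passed the test. All 24 ATF6/XBP1-type genes had a positive log2 difference (4-HPAA minus control, on the log2(value + 1) scale), with a median of 0.33. Within these, the median was 0.52 for 11 chaperones, 0.33 for 4 disulphide isomerases, 0.19 for 7 degradation genes and 0.23 for 2 translocon genes. Of the 7 PERK-ATF4 genes, 5 were positive, with a median of 0.17, and the 3 sensors were positive with a median of 0.19. Over all 12720 genes tested, 49.8% were positive and the median was 0.00. The difference between the branches was not tested, and the median of the degradation genes was close to that of the PERK-ATF4 genes. With limma and Benjamini-Hochberg adjustment over all genes tested, 0 of 34 members and 0 of 12720 genes (0%) had an adjusted p under 0.05, and the smallest adjusted p among members was 0.183.

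At an unadjusted p under 0.05 there were 12 of 34 members, all higher, where 1886 of the 12720 genes tested (14.8%) had one. Higher genes made up 7.26% of those tested and lower genes 7.56%. They were 11 of 24 ATF6/XBP1-type genes and 1 of 7 PERK-ATF4 genes. This count rested in part on single mice, and it was 5 without 4-HPAA replicate 1 or 5 and 7 without control replicate 3. The share of all genes fell as well in these settings, to 10.4%, 11.5% and 12.7%. It was 11, beside 19.6% of all genes, when 4-HPAA replicate 3 was left out, whose position on principal component 2 was −56.45 against −7.52 to 17.03 in the others. Calr and Dnajb11 passed without 4-HPAA replicate 4 (limma, adjusted p = 0.0423 and 0.0455), where 193 genes of all passed. The groups overlapped in all 34 members, and did not overlap in 0.66% of all genes tested.

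**Figure D1:**
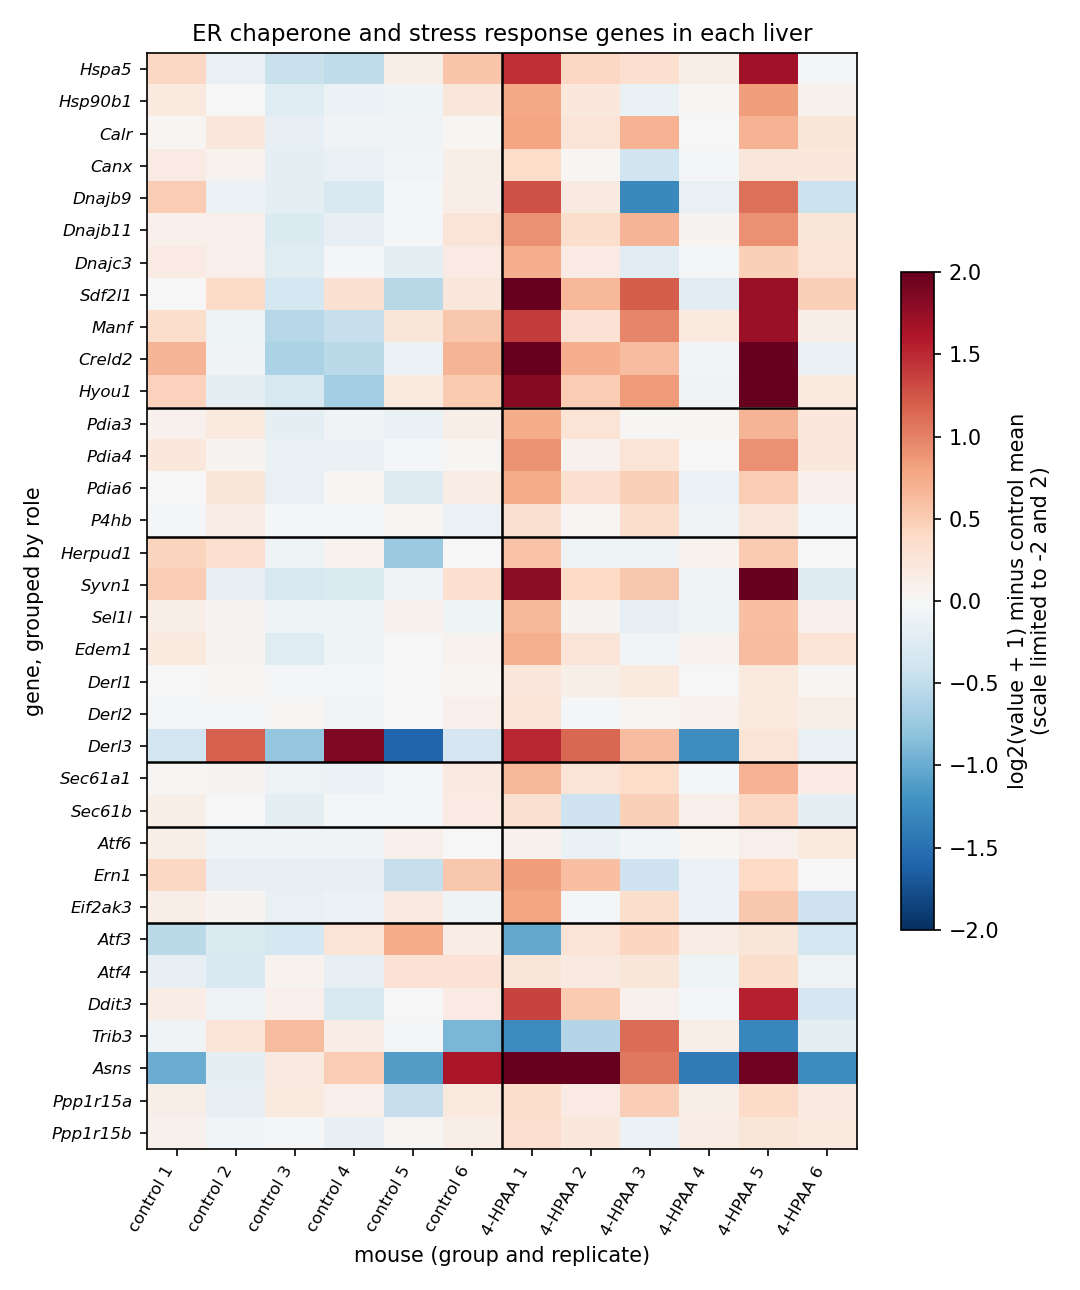
Each row is a gene and each column a mouse, coloured by log2(value + 1) minus the mean of the 6 control mice, on a scale limited to −2 and 2, with lines between the groups of genes and of mice. 4-HPAA replicates 1 and 5 are red across nearly all chaperone and degradation rows, while 4-HPAA replicates 4 and 6 lie near the controls.

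The higher mean came mostly from some of the treated mice. For 19 of 24 ATF6/XBP1-type genes the 2 highest of the 12 livers were 4-HPAA replicates 1 and 5, a pair noticed in the data, against 7.3% of all genes tested. Averaged over the 24 genes, the log2 value lay 0.98 and 0.92 above the control mean in these mice, 0.26 in both replicates 2 and 3, −0.06 in replicate 4 and 0.07 in replicate 6. The controls lay between −0.25 and 0.18, with an SD of 0.18 against 0.44 in 4-HPAA mice (n = 6 each). The SD of a gene was larger with 4-HPAA in 22 of the 24, and in 68.9% of all genes tested.

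Among the lumenal chaperones, Hspa5 encodes BiP, the ER member of the HSP70 family, which also holds the sensors inactive. Hspa5 lay between 8882 and 18517 in controls (median 12514) and at 34570, 16821, 15918, 13769, 40100 and 12302 in 4-HPAA replicates 1 to 6. Only replicates 1 and 5 exceeded the highest control, so the group means of 13064 ± 3973 and 22247 ± 11924 (SD, n = 6 each) overlap widely. The log2 difference was 0.67 ± 0.30 (SE; limma, adjusted p = 0.332), with a 95% interval of 0.01 to 1.32.

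The nucleotide exchange factor of BiP, Hyou1, was likewise highest in replicates 5 and 1. Hyou1 lay between 1433 and 3312 in controls (median 2322) and at 8112, 3257, 4125, 2190, 9090 and 2617 in 4-HPAA replicates 1 to 6, a difference of 0.88 ± 0.35 (limma, adjusted p = 0.273). The J-domain partners of BiP gave unlike values. Dnajb11 lay between 1477 and 2119 in controls (median 1829) and at 3342, 2274, 2846, 1838, 3350 and 2107 with 4-HPAA, so 4 treated mice exceeded every control, for a difference of 0.52 ± 0.15 (limma, adjusted p = 0.183).

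Dnajb9, which brings BiP to IRE1 and is a known XBP1 target, had no such separation. It lay between 1328 and 2334 in controls (median 1565) and at 3979, 1864, 675, 1479, 3518 and 1218 in 4-HPAA replicates 1 to 6. The highest and the lowest of all 12 values were thus both in treated mice, and the difference of 0.11 ± 0.36 (limma, adjusted p = 0.917) turned to −0.12 without replicate 1 and was 0.39 without replicate 3. Dnajc3, the third partner, lay between 4354 and 5756 in controls and 4367 and 8505 with 4-HPAA, a difference of 0.23 ± 0.14 (limma, adjusted p = 0.471).

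Sdf2l1, a small lumenal protein that works with Dnajb11, had among the largest differences of the chaperones. It lay between 179 and 345 in controls (median 286.5) and at 1180, 421, 613, 228, 880 and 367 in 4-HPAA replicates 1 to 6, a difference of 1.00 ± 0.34 (limma, adjusted p = 0.215). All treated mice but replicate 4 exceeded every control. Manf, a secreted ER stress factor, lay between 716 and 1543 in controls (median 1129) and at 2799, 1295, 2087, 1221, 3524 and 1163 with 4-HPAA, a difference of 0.78 ± 0.30 (limma, adjusted p = 0.252). Creld2, a lumenal protein that ER stress is known to raise, ranged from 325 to 811 in controls and from 457 to 3136 with 4-HPAA (1.03 ± 0.49; limma, adjusted p = 0.355). For both genes the highest 2 livers were replicates 5 and 1.

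The lectin chaperones hold glycoproteins while they fold. Calr, calreticulin, lay between 14897 and 19521 in controls (median 16529) and at 28795, 19903, 27075, 16851, 26916 and 19804 in 4-HPAA replicates 1 to 6. Every treated mouse but replicate 4 exceeded the highest control, and the difference was 0.45 ± 0.13 (limma, adjusted p = 0.183), 0.40 without replicate 3. Canx, its membrane-bound relative calnexin, lay between 7980 and 10264 in controls and 6879 and 11725 with 4-HPAA, with a difference of 0.07 ± 0.12 (limma, adjusted p = 0.838) and a 95% interval of −0.18 to 0.32. Hsp90b1, the ER member of the HSP90 family, lay between 8948 and 12355 in controls (median 10338) and at 18046, 12297, 9608, 10785, 18870 and 11184 with 4-HPAA (0.30 ± 0.16; limma, adjusted p = 0.408). For Canx and Hsp90b1, 4-HPAA replicate 3 was the lowest treated mouse, while for Calr it was the second highest.

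**Figure D2:**
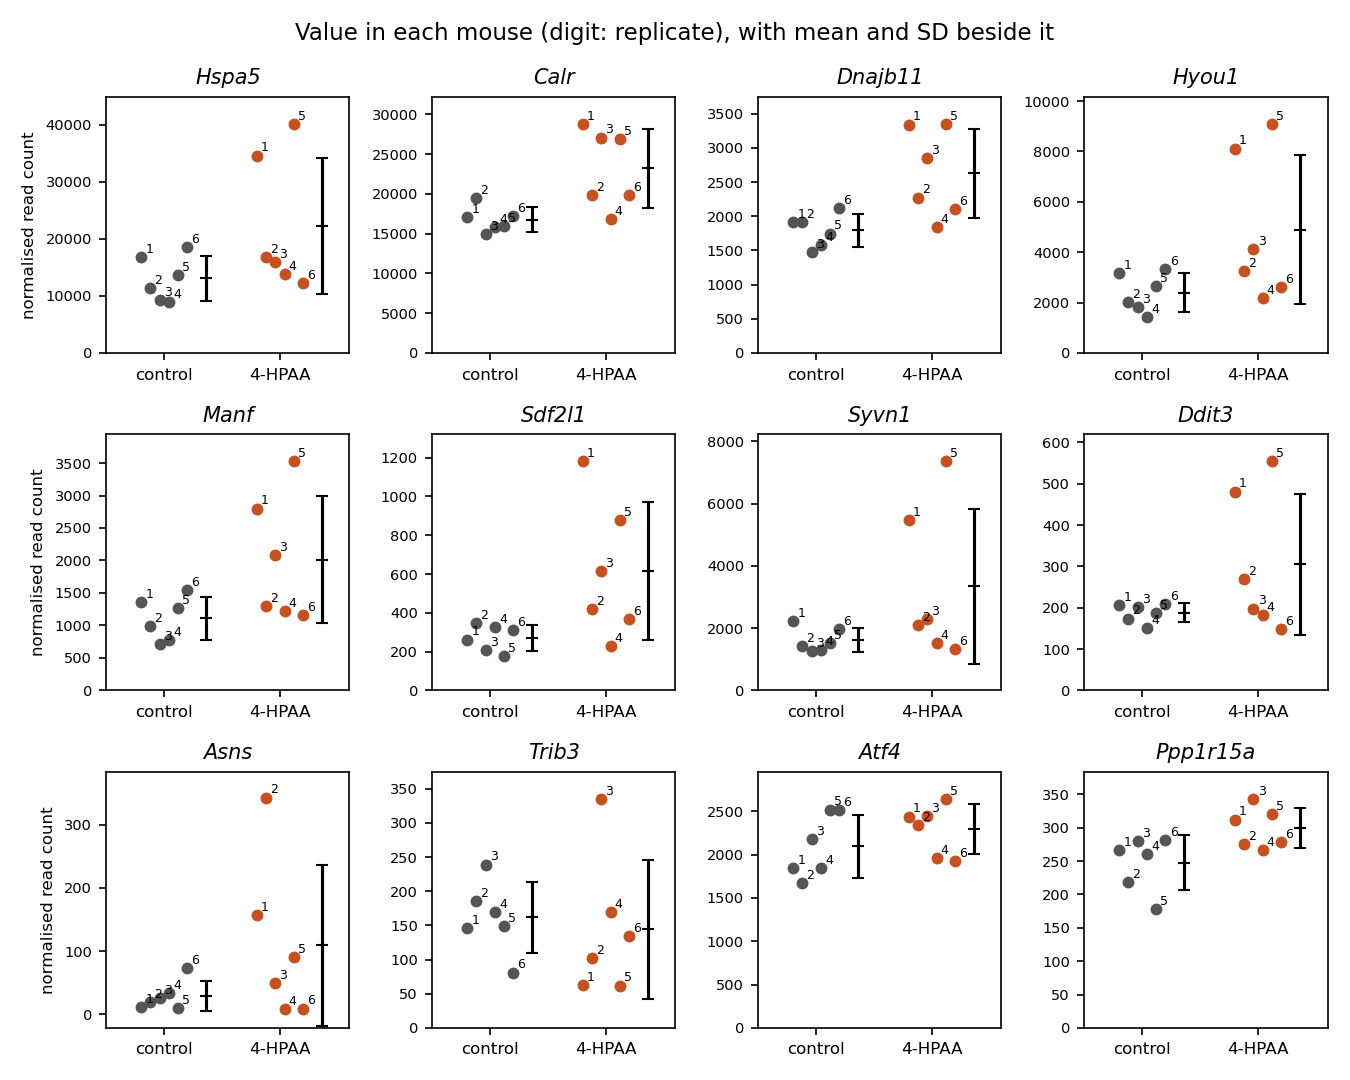
Normalised read counts of 12 genes in each mouse (points, marked with the replicate number), with the mean and SD of each group (n = 6) as bars beside the points. Replicates 1 and 5 are the highest treated mice for Hspa5, Hyou1, Manf, Sdf2l1, Syvn1 and Ddit3, whereas Asns is highest in replicate 2 and Trib3 in replicate 3.

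The protein disulphide isomerases form and rearrange disulphide bonds. Pdia4 lay between 3143 and 4010 in controls (median 3456.5) and at 6420, 3675, 4199, 3431, 6526 and 3989 in 4-HPAA replicates 1 to 6, a difference of 0.40 ± 0.16 (limma, adjusted p = 0.262). Pdia3, the partner of calreticulin and calnexin, lay between 8026 and 10564 in controls (median 9236.5) and at 15357, 11104, 9310, 9403, 14774 and 10677 with 4-HPAA (0.33 ± 0.13; limma, adjusted p = 0.27). Pdia3 exceeded every control in 4 treated mice and Pdia4 in 3, with replicates 1 and 5 among both.

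Pdia6 gave a like difference, 0.34 ± 0.13 (limma, adjusted p = 0.263), with 4964 to 6991 in controls (median 5941.5) and 9963, 7389, 8257, 5454, 8459 and 6332 in 4-HPAA replicates 1 to 6. P4hb, the founding member of the family, was the most abundant of the 34 genes per length, at 13919 ± 907 per kilobase of exon in controls, followed by Calr at 5818 ± 557 (SD, n = 6). The difference of P4hb was 0.14 ± 0.09 (limma, adjusted p = 0.498). On the same scale Calr and Herpud1 (5812 ± 1514) did not differ beyond their spread, and the lowest were Atf3 (14.4 ± 5.19) and Asns (10.5 ± 8.54).

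ER-associated degradation pulls misfolded proteins back to the cytosol for the proteasome. Its ubiquitin ligase Syvn1 (HRD1) lay between 1270 and 2240 in controls (median 1461.5) and between 1324 and 7353 with 4-HPAA (0.77 ± 0.38; limma, adjusted p = 0.371), with replicates 1 and 5 at 5466 and 7353. Edem1, a lectin that hands glycoproteins to degradation, lay between 3255 and 4430 in controls (median 3948) and at 6306, 4627, 3725, 4052, 5910 and 4653 with 4-HPAA (0.31 ± 0.13; limma, adjusted p = 0.272). It was the only degradation gene of the 7 at an unadjusted p under 0.05 (14.3%, beside 14.8% of all genes tested).

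Herpud1, which joins the ligase complex and carries both kinds of promoter element shown above, differed little between the groups. Herpud1 lay between 7804 and 17858 in controls (median 13501) and at 19490, 12280, 12281, 13786, 18768 and 13049 in 4-HPAA replicates 1 to 6, with near-equal medians and a difference of 0.16 ± 0.19 (limma, adjusted p = 0.739). Replicates 1 and 5 were again the highest livers, just above the highest control. The ligase partner Sel1l differed by 0.19 ± 0.14, and the derlins Derl1 and Derl2, which form part of the channel, by 0.13 ± 0.06 and 0.11 ± 0.07. Derl3, a derlin typical of secretory cells, was scarce and scattered, at 61, 184, 46, 294, 26 and 63 in controls and 229, 178, 123, 33, 96 and 72 with 4-HPAA (0.36 ± 0.59; limma, adjusted p = 0.824). Its highest value of all was in a control.

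The Sec61 translocon is the channel through which secretory proteins enter the ER. Its large subunit Sec61a1 lay between 3815 and 4692 in controls (median 4123) and at 6547, 5023, 5330, 4055, 6738 and 4639 in 4-HPAA replicates 1 to 6, a difference of 0.36 ± 0.12 (limma, adjusted p = 0.206). Again 4 treated mice exceeded every control. The small subunit Sec61b differed by 0.11 ± 0.14 (limma, adjusted p = 0.752), with 937 in 4-HPAA replicate 2 as its lowest value.

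The sensor genes had small positive differences, each with a 95% interval that included 0. Atf6 lay between 1631 and 1855 in controls and 1564 and 1976 with 4-HPAA, a difference of 0.04 ± 0.07 (limma, adjusted p = 0.836), with a 95% interval of −0.11 to 0.20. Ern1 differed by 0.22 ± 0.22 and Eif2ak3 by 0.19 ± 0.17 (limma, adjusted p = 0.682 and 0.656). Their 95% intervals were wider, at −0.25 to 0.70 and −0.18 to 0.55. For Eif2ak3 the highest livers were again 4-HPAA replicates 1 and 5, at 631 and 529, against at most 412 in controls. The activation of these sensors is set by protein cleavage, splicing and phosphorylation, which gene counts do not measure.

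**Figure D3:**
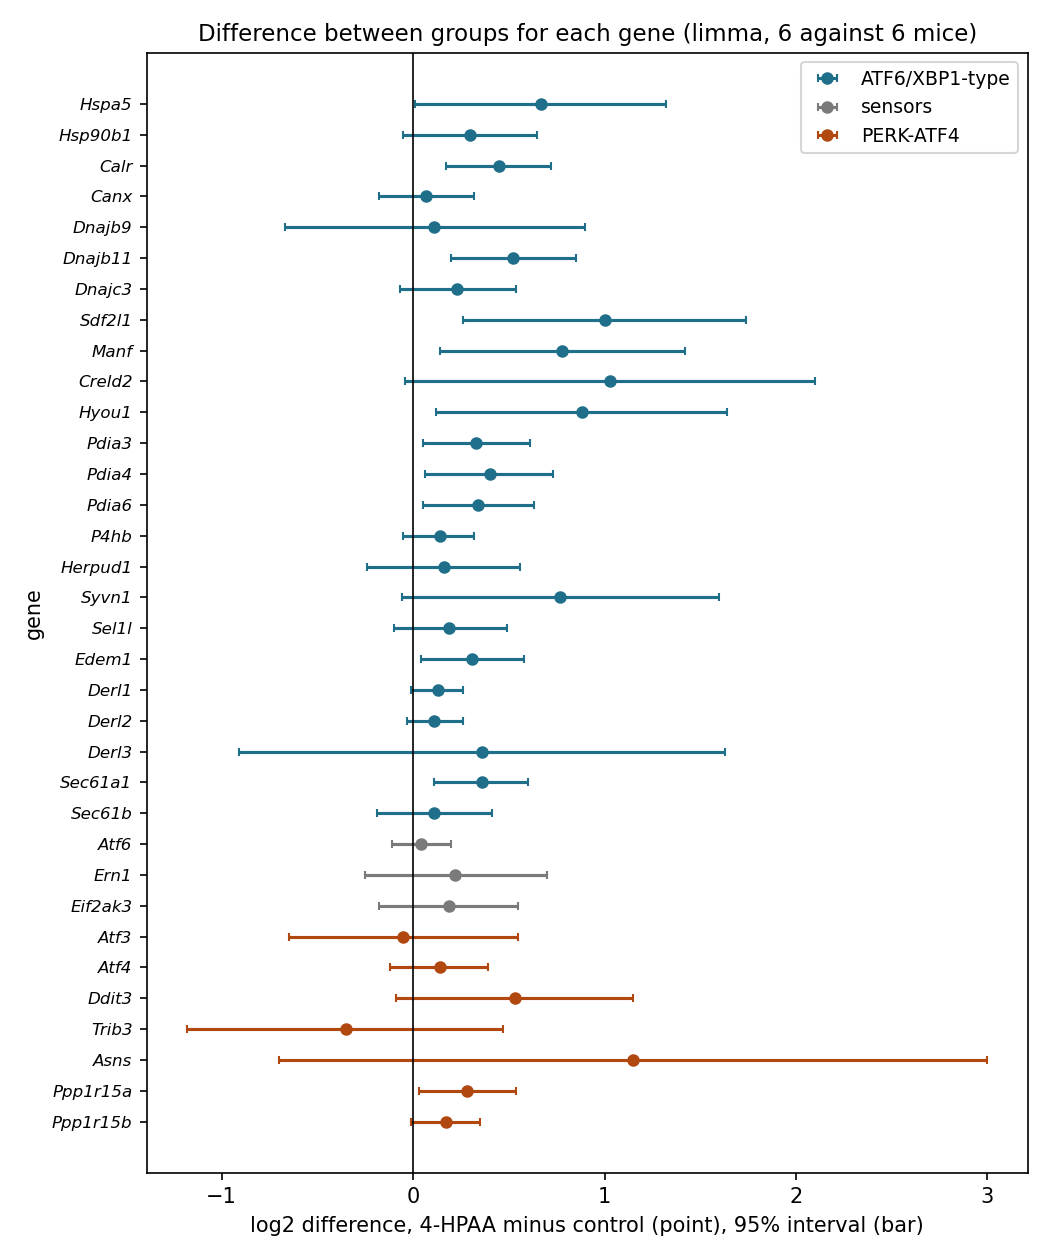
Log2 difference of each member (point, 4-HPAA minus control, 6 mice each) with its 95% interval from limma (bar), by branch. All 24 ATF6/XBP1-type genes lie to the right of 0, and the PERK-ATF4 genes spread from Trib3 at −0.35 to Asns at 1.15.

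In the PERK-ATF4 arm, the factor Atf4 itself, whose output is known to be set mainly by translation, lay between 1668 and 2519 in controls (median 2012.5) and at 2438, 2342, 2441, 1960, 2642 and 1926 in 4-HPAA replicates 1 to 6. The groups covered nearly the same range, with a difference of 0.14 ± 0.12 (limma, adjusted p = 0.63). Ddit3, which encodes the death-promoting factor CHOP, lay between 150 and 209 in controls (median 194.5) and at 481, 270, 198, 182, 554 and 148 with 4-HPAA, a difference of 0.53 ± 0.29 (limma, adjusted p = 0.414). Its highest livers were replicates 5 and 1, as for Hspa5 and Hyou1.

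Trib3 and Asns, both known ATF4 targets, went apart. Trib3, a pseudokinase, lay between 81 and 239 in controls (median 159.5) and at 63, 102, 335, 169, 62 and 134 in 4-HPAA replicates 1 to 6, a difference of −0.35 ± 0.38 (limma, adjusted p = 0.717), and −0.64 without replicate 3. Its values were the lowest of all 12 livers in replicates 1 and 5, the mice with the most Hspa5 and Ddit3. Asns, asparagine synthetase, was low in the liver, at 11, 20, 26, 33, 10 and 73 in controls and 157, 343, 49, 8, 91 and 9 with 4-HPAA (1.15 ± 0.85; limma, adjusted p = 0.565). Its treated values ran from below every control to more than the highest of them, and its highest liver was replicate 2, not 1 or 5.

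The phosphatase subunits that undo eIF2-alpha phosphorylation had small positive differences. Ppp1r15a, the stress-induced subunit GADD34, lay between 178 and 281 in controls (median 263.5) and at 312, 275, 343, 267, 320 and 278 with 4-HPAA, a difference of 0.28 ± 0.12 (limma, adjusted p = 0.291). It was the only PERK-ATF4 gene of the 7 at an unadjusted p under 0.05 (14.3%, beside 14.8% of all genes tested). All 6 treated mice lay above the control mean, and 3 lay above every control. Ppp1r15b, the constitutive subunit, differed by 0.17 ± 0.08 (limma, adjusted p = 0.355). Atf3, a stress-induced repressor, was near the lower limit of the table, at 20, 24, 23, 36, 50 and 33 in controls and 14, 36, 40, 33, 35 and 23 with 4-HPAA, and its difference of −0.05 ± 0.28 changed sign between settings.

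**Figure D4:**
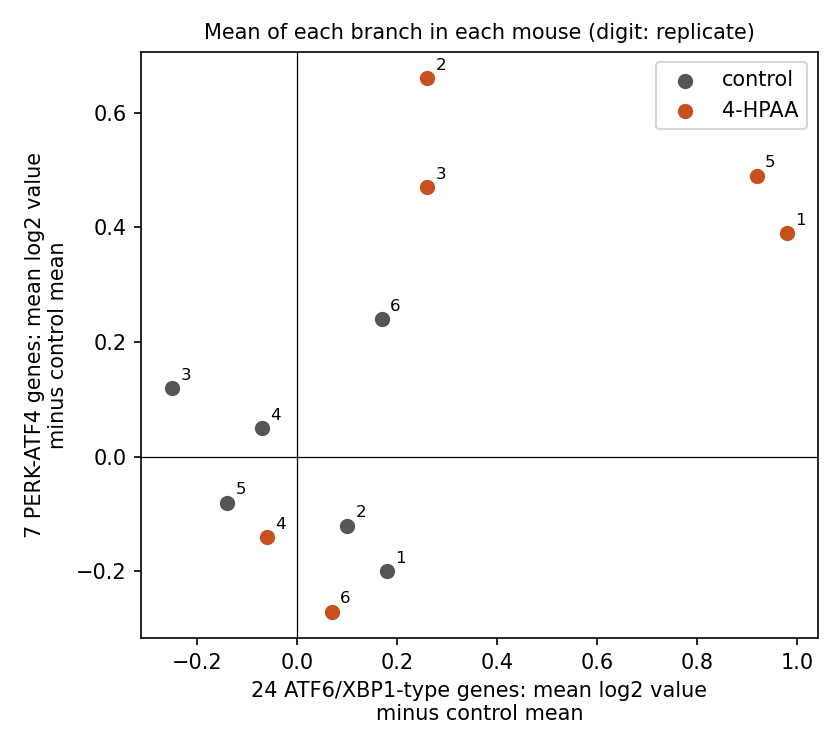
Each point is a mouse, marked with its replicate number, at the mean log2 value of the 24 ATF6/XBP1-type genes (x) and of the 7 PERK-ATF4 genes (y), both minus the control mean. 4-HPAA replicates 1 and 5 lie far to the right and also above every control on y. Replicates 2 and 3 lie above every control on y but not far right. Without Asns the y values of replicates 1, 2, 3 and 5 were 0.00, 0.13, 0.37 and 0.25, beside −0.11 to 0.11 in controls. Replicate 4 lies among the controls, and replicate 6 lies among them on x but below them on y.

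Set side by side in each mouse, the branches gave different orders. The mean over the PERK-ATF4 genes was highest in 4-HPAA replicate 2 (0.66), then 5 (0.49), 3 (0.47) and 1 (0.39), with replicates 4 and 6 at −0.14 and −0.27 and the controls between −0.20 and 0.24. The order changed when Asns was left out: without it the values were 0.00, 0.13, 0.37, 0.07, 0.25 and −0.10 in 4-HPAA replicates 1 to 6, and −0.11 to 0.11 in controls, and the median log2 difference of the list was 0.15. For Hspa5 over Atf4 the mean log2 ratio was 2.60 ± 0.41 in controls (SD, n = 6) and 3.13 ± 0.58 in treated mice, which is 0.53 higher (exact permutation test, two-sided, p = 0.11, adjusted over 3 ratios 0.331). The ratio of Hspa5 to Ddit3 differed by 0.14 (exact permutation test, p = 0.416, adjusted 0.587) and that to Asns by −0.48 (p = 0.587, exact permutation, adjusted 0.587). A p that misses the threshold does not show that the ratios were alike.

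The wider pathway was taken from lists of further genes. Of 94 other ATF6/XBP1-related genes tested, 73 had positive differences, with a median of 0.15, and 28 (29.8%) had an unadjusted p under 0.05, all higher, beside 49.8% positive and 7.26% higher at that p over all genes tested. None passed over all genes (smallest limma adjusted p = 0.161). The clearest list was that of translocation, glycosylation and vesicle exit, where 32 of 37 were positive and 15 (40.5%) had an unadjusted p under 0.05. Its genes of smallest p were the signal recognition particle receptor Srpr (0.30 ± 0.09), the oligosaccharyl transferase subunits Rpn1 (0.33 ± 0.10) and Ddost (0.32 ± 0.10), and the coat component Sec24d (0.32 ± 0.11), with limma adjusted p-values of 0.193 to 0.206.

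Among 33 other folding and redox factors, 24 were positive (median 0.12), led by the isomerase Pdia5 (0.62 ± 0.17), the prolyl isomerase Fkbp11 (0.78 ± 0.21), the glucosidase subunit Ganab (0.34 ± 0.09) and the glycoprotein folding sensor Uggt1 (0.34 ± 0.12). Of 24 other degradation factors, 17 were positive (median 0.08), with Selenos (0.30 ± 0.10), Faf2 (0.20 ± 0.07), Edem2 (0.26 ± 0.11) and Ube2g2 (0.32 ± 0.14) first by p. Each of these 8 genes had a limma adjusted p between 0.161 and 0.293.

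The other integrated stress response genes, 40 tested, were evenly divided, with 20 positive, 20 negative and a median of −0.01, and 7 higher and 4 lower at an unadjusted p under 0.05 (27.5%, beside 14.8% of all genes tested). On the higher side were the aminoacyl-tRNA synthetases Eprs (0.32 ± 0.09) and Aars (0.41 ± 0.12) and the amino acid transporter Slc7a5 (0.47 ± 0.13). All synthetases of the list, a group noticed in the data, had positive differences, from 0.04 to 0.41. On the lower side was Fgf21, a hormone that both ATF4 and PPAR-alpha are known to raise, at 89 to 235 in controls and 7 to 105 with 4-HPAA, a difference of −1.72 ± 0.53 (limma, adjusted p = 0.199). As in the members, the ATF4-related genes did not share a direction.

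Several measures varied with these results, and their part in them was not tested. Of 26 acute phase genes, 23 had positive differences between the groups (median 0.51). At an unadjusted p under 0.05 there were 19 (73.1%), all higher, beside 14.8% of all genes tested. None passed (smallest limma adjusted p = 0.142), as for all genes tested. Saa1 was at 37622, 63934, 12759, 2844, 27065 and 2196 in 4-HPAA replicates 1 to 6 and 1270 to 2690 in controls. Orm1 was at 35027, 37046, 25969, 13687, 30938 and 15027, and 8454 to 14834 in controls. Replicates 4 and 6, low in Saa1, were those near the controls in chaperones, while replicate 2, highest in Saa1, was not highest in chaperones. Estimated depth, from the scaling read out of the values, was 22.4 and 23.8 M reads in 4-HPAA replicates 1 and 5 and 23.4 to 25.9 M in the other treated mice. The controls with the highest ATF6/XBP1-type means, replicates 1 and 6, had 24.4 and 23.9 M, against 25.8 to 26.9 M in the other controls.

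Marker lists of other cells gave these values. All 10 stellate cell and fibroblast markers had negative differences (median −0.63), and their summed level was 289 to 471 ppm of the library total in controls and 186 to 356 with 4-HPAA. Of 10 endothelial markers 8 were negative (205.7 to 291.9 ppm with 4-HPAA, 216.5 to 295.6 in controls), of 12 Kupffer cell and macrophage markers 9 (193.3 to 304.8 against 133.5 to 522.7) and of 6 cholangiocyte markers 4 (49 to 75.1 against 53.1 to 80). Plasma and B cells, which are rich in ER chaperones, were listed by 13 markers, 8 of them in the table. They summed to 207.5 to 246.7 ppm with 4-HPAA and 185 to 246.2 in controls, nearly all from Sdc1, which hepatocytes also express, while Jchain lay at 32 to 69 in controls and 19 to 100 with 4-HPAA and Mzb1 at 8 to 22 and 5 to 17. Of 10 pancreatic acinar markers 1, Cela1, was in the table (438 to 1244 in controls, 687 to 1631 with 4-HPAA). No marker in the table was at 0, since its smallest value is 2. Hepatocyte markers were abundant in every library, led by Alb (9 of 10 in the table, 112512 to 127825 ppm in controls and 89156 to 116295 with 4-HPAA). Their sum was lowest of all 12 livers in 4-HPAA replicates 1 and 5, at 89156 and 90763 ppm. Alb was lowest there too, at 1258013 and 1332962 against 1735801 to 2091337 in controls, with a group difference of −0.38 ± 0.10 (limma, adjusted p = 0.148), while 6 of the 9 markers had positive differences. The part of these levels in the chaperone values was not tested. In whole liver, fewer cells of a type and less RNA per cell cannot be told apart.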

How the data were processed

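The deposited table gives 12 liver libraries in 1 file, and no column of other samples. Per the labels' protocols, libraries came from a directional TruSeq mRNA kit and were read on a NovaSeq. The submitters' processing notes name the build GRCm38 and the tools edgeR, DESeq2 1.28.1, STAR, HTSeq, cutadapt and FastQC 0.11.9. The role of each tool and the strand setting of the counting are not stated in these sources. The deposited values are a score: read counts, rounded after the authors scaled each library by its own factor. That reading rests on the values, in which some low whole numbers are missing or doubled at regular spacing, and it gave factors of 0.849 to 1.128 and an estimated 22.4 to 26.9 M reads per library. Totals of the values were 22869813 to 25255447. No value is below 2. At low values, such as Asns and Atf3, counting error is large.

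Transcript IDs were matched to GENCODE M21 (Ensembl 96), which named 13200 of 13267. In 13 of 34 members some exon bases also lie in another gene, at most 11.4% of a member, so such reads may be shared. Levels per kilobase use the union of a gene's exons.

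Limma 3.58.1 in R 4.3.3 (eBayes, trend and robust) was fitted to log2(value + 1) for the 12720 genes with at least 10 in at least 6 libraries, with Benjamini-Hochberg adjustment at 0.05. Fold changes on this scale understate those of low genes. Ratios of genes were tested by exact permutation. The fit and the depth estimate were tried on simulated data. For the fit, each gene had the same SD in both groups, unlike the data, where most genes varied more with 4-HPAA. The members, gene lists and tests were chosen with earlier results of these data known. All members are named. Values per mouse (of larger groups, the range and median) are given for Hspa5, Hsp90b1, Calr, Dnajb11, Sdf2l1, Hyou1, Dnajb9, Pdia4, Herpud1, Derl3, Atf4, Ddit3, Trib3, Asns, Atf3, Ppp1r15a and other members at an unadjusted p under 0.05. From each further list up to 4 genes of smallest p are named, from the acute phase list Saa1 and Orm1, and from marker lists genes of high level. Jchain and Mzb1 were added as defining plasma cell genes after their values were seen. Alternatives were other pseudocounts, filters, scalings, sample weights, variance settings, a replicate block and each library left out. Plots used Python 3.11.15 and matplotlib 3.10.9.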

Additional observations from a re-analysis of the deposited data

Results flagged for a closer look

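Control replicate 6 stood apart from the other controls for Asns, at 73 where the next highest control was 33, a gap of 0.63 of the range of the group, which is past Dixon's critical value for 6 samples. It was 1 of 68 groups of 6 examined, 2 for each of 34 members, and chance flags about 1 group in 20 on average.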

How the results depend on the processing

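The median difference of the ATF6/XBP1-type genes was 0.24 to 0.41 with 1 library left out and that of the PERK-ATF4 genes 0.14 to 0.23, and neither was negative in any setting run. Members past an adjusted p of 0.05 numbered 0 to 2 and members at an unadjusted p under 0.05 numbered 5 to 16 with 1 library left out. Of all genes, 0 to 193 then passed. With array quality weights 139 genes of all passed and 21 members had an unadjusted p under 0.05, 20 of them higher, beside 3050 of the 12720 genes tested. With the replicate number as a block 11 genes of all passed, 15 members had an unadjusted p under 0.05, beside 16.1% of all genes, and no member passed; same-numbered libraries correlated at −0.183 to 0.282 in their deviations and 3 of 6 matched their own number best, so not every pair was above 0.1, and the labels do not say what a number marks. Atf3 turned positive with quantile normalization (0.12) and ranged from −0.15 to 0.15 with 1 library left out (0.01, 0.10, 0.15 and 0.01 without control replicates 4 and 5 and 4-HPAA replicates 1 and 6). Dnajb9 ranged from −0.12 to 0.39 (−0.12 and −0.09 without 4-HPAA replicates 1 and 5), and the ratio of Hspa5 to Asns from −0.89 to 0.10. The cause was not tested.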

Other observations

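Other sensors and regulators of the ER were mostly close to the controls. Of 17 tested, 10 had positive differences, the median was 0.03, and 1 (5.88%) had an unadjusted p under 0.05, a smaller share than the 14.8% of all genes tested, of which 49.8% were positive. That gene was Wfs1, an ER membrane protein of calcium balance, at 145 to 245 in controls and 205 to 312 with 4-HPAA, a difference of 0.46 ± 0.15 (limma, adjusted p = 0.206). Next by p were Atf6b, a relative of ATF6, at 0.28 ± 0.14, Mbtps1, the site-1 protease that cuts ATF6, at 0.15 ± 0.07, and Creb3l1, a related membrane-bound factor of low level, at −0.77 ± 0.39.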
